A study of Danio rerio with 6 samples.

Results

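Genes of cytokine signaling were compared between control larvae and larvae exposed to Lurasidone, an antipsychotic that blocks dopamine and serotonin receptors. The genes were chosen by symbol: interleukins and their receptors (symbols starting with il and a digit, il6st left out), chemokines (ccl, cxcl) and their receptors (ccr, cxcr), genes with symbols starting with tnfa, tnfb or tnfr, interferons and their receptors (ifn), and interferon regulatory factors (irf). The rule found 173 of the 39214 genes in the deposited table. It used symbols and no measured value, but the genes were chosen with earlier results of these data known. All 6 libraries came from AB wild-type zebrafish at 5 dpf, kept in fish water at one temperature, with 3 biological replicates per group. The control group received no drug and, per the methods, the DMSO solvent. The treated group received 4 mg/L Lurasidone, from 3 hpf per the sample labels and from 5 hpf per the methods, until 5 dpf. The labels name larvae as the tissue, while the methods name both entire larvae and brain as the source of the RNA.

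Cytokines are secreted proteins that carry signals between cells, and each acts through receptors on the target cell. Interleukins and interferons mostly signal through receptor-bound Janus kinases and STAT transcription factors. Tumor necrosis factor and interleukin-17 receptors lead to NF-kB. Chemokines act on G protein-coupled receptors and direct the migration of leukocytes, and in the zebrafish embryo also of germ cells and of the lateral line primordium. Interferon regulatory factors are DNA-binding proteins that control interferon genes and their targets. At 5 dpf the larva has neutrophils, macrophages and microglia, and its thymus is being seeded with T cell precursors.

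Levels are given in FPKM, the fragments of a gene scaled by its length and by library size, as deposited by the authors. Fragments assigned to genes, read back from FPKM and length, came to between 11749887 and 15107664 per library. Markers of liver, exocrine pancreas, muscle, lens, skin and brain were found, so the libraries hold RNA of tissues beyond the brain. In every library, fabp10a of liver was at no less than 90.3 FPKM, prss1 of pancreas at no less than 721 and gfap of brain at no less than 84.4. Of the muscle markers, ckma was at no less than 170 FPKM and acta1b at no less than 313, but mylpfa was at most 0.255 FPKM. In whole larvae, more cells of a type and more RNA per cell cannot be told apart. Differences were tested with limma on log2(FPKM + 1) for genes that reached 0.5 FPKM in 3 or more libraries, with Benjamini-Hochberg adjustment over all 23409 genes tested. A gene was called at an adjusted p of at most 0.05 and was a DEG if its log2 fold change was also at least 1 in size. The added pseudocount of 1 makes the fold changes of scarce genes too small on this scale.

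Most cytokine genes were too scarce in the larvae to be tested. Of the 173 genes, 26 had no fragment in any library, and 50, with these 26 included, had at most 3 fragments in every library. Over the whole table these counts were 7103 and 10254 of 39214 genes, which are similar shares. The filter was passed by 78 genes, and 95 were not tested, beside 15805 untested genes of the 39214. Among ligands, 4 of 24 interleukins, 19 of 50 chemokines, 0 of 2 TNF ligands and 0 of 5 interferons were tested. Among receptors, 17 of 29 interleukin receptors, 6 of 22 chemokine receptors, 7 of 10 TNF receptors and 4 of 5 interferon receptors were tested. A value of 0 does not show that a gene was silent. The gene hprt1, which is used in many cells, and the general leukocyte marker coro1a were listed at 0 in at least 5 of the 6 libraries. So was tnfaip1 in all 6.

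**Figure D1:**
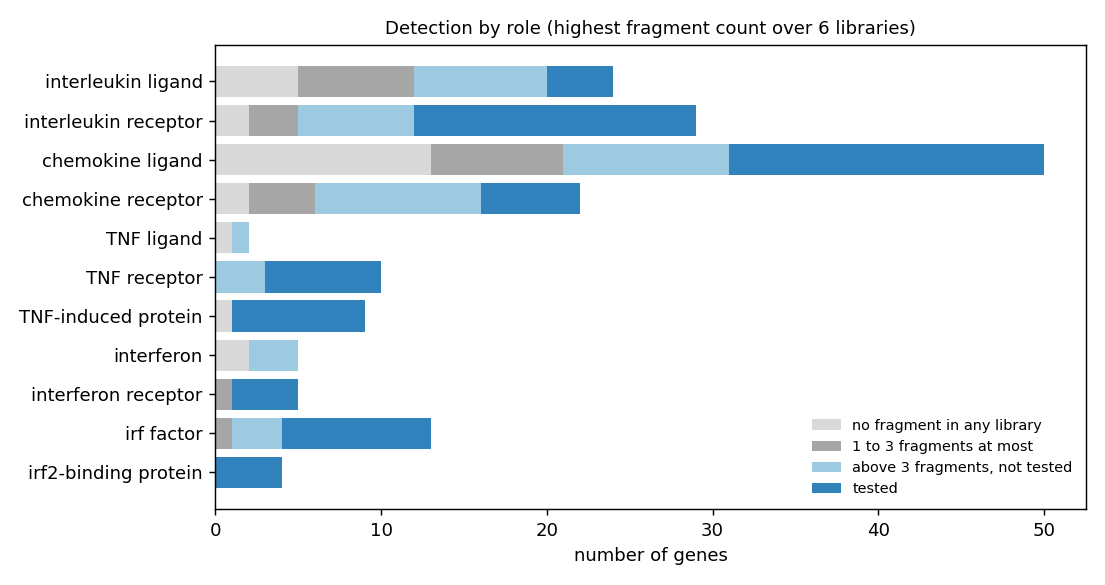
Number of genes (x axis) in each role (y axis), split by the highest fragment count over the 6 libraries and by whether the gene passed the filter for testing. Of 50 chemokine ligands 31 were not tested, while all 4 irf2-binding proteins were.

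Of the 78 tested genes, 6 rose under Lurasidone and 0 fell at an adjusted p of at most 0.05 (limma). Over all 23409 tested genes 5.79% were called higher and 3.9% lower (9.7% in either direction), so the 7.69% of cytokine genes called higher lay near the background. One of the 6, ccl36.1, passed the filter only through the Lurasidone libraries, where it was higher, and 5 remain without it. The 6 genes were the chemokine receptor ccr9a, the interleukin il11a, the interleukin receptors il4r.1 and il17rc, the TNF receptor tnfrsf1a and the chemokine ccl36.1. Only ccr9a and il11a were DEGs, where 2.61% of all tested genes were higher DEGs and 1.22% lower DEGs. Leaving out control replicate 1 reduced the 6 higher genes to 3. They were reduced to 2 by omitting control replicate 2, and likewise by omitting replicates 2 or 3 of Lurasidone, and ccr9a and il4r.1 were called each time. At an unadjusted p of at most 0.05, 22 of the 78 genes were higher and 5 lower, where the background over all tested genes was 14.1% higher and 14.1% lower. With limma voom on the recovered fragments, 114 of the genes were tested, 6 were called higher and 1, il17rd, lower, where the background was 6.29% higher and 4.51% lower. The median log2 fold change of the 78 genes was 0.14, beside -0.02 over all tested genes.

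Counted in either direction, separation of the groups was as frequent as among all tested genes, at 33.3% of the 78 genes and 33.3% of all. The directions differed. Of the 78 genes, 21 (26.9%) had all Lurasidone libraries above all controls, beside 17.1% of all tested genes. Only 5 of the 78 had them below, beside 16.2% of all tested genes. The 21 include ccl36.1, which passed the filter only through the Lurasidone libraries. With untested genes included, 25 of 173 lay above and 6 below, beside 11.9% and 10.5% of the whole table. Of the 66 receptors, tested or not, 15 lay entirely above the controls and 1 below, and of the 81 ligands 7 lay above and 4 below. The summed level of the 66 receptors was between 111 and 123 FPKM in control and between 139 and 155 under Lurasidone, without overlap. The summed level of the ligands overlapped between the groups, with 70.6 to 85.2 FPKM in control and 80.9 to 102 in Lurasidone. Genes with tnfaip symbols are called TNF-induced proteins here, by symbol alone. By role, the sums were apart for TNF receptors and TNF-induced proteins (15.9 to 17.5 FPKM in control, 17.6 to 22.8 under Lurasidone). They were also apart for chemokine receptors (10.5 to 13.7 and 15.9 to 19.7), interferon receptors (12.01 to 16.4 and 18.3 to 22.9) and interleukin ligands (6.45 to 6.84 and 9.63 to 12.2). The sums overlapped for interleukin receptors (58.5 to 74.5 and 67.4 to 82.1) and chemokines (63.3 to 77.1 and 70.8 to 89.9). Overlap was also seen for TNF ligands, interferons, irf factors and irf2-binding proteins. How often such sums lie apart for other sets of genes was not examined. Whether receptors and ligands moved differently was not tested.

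**Figure D2:**
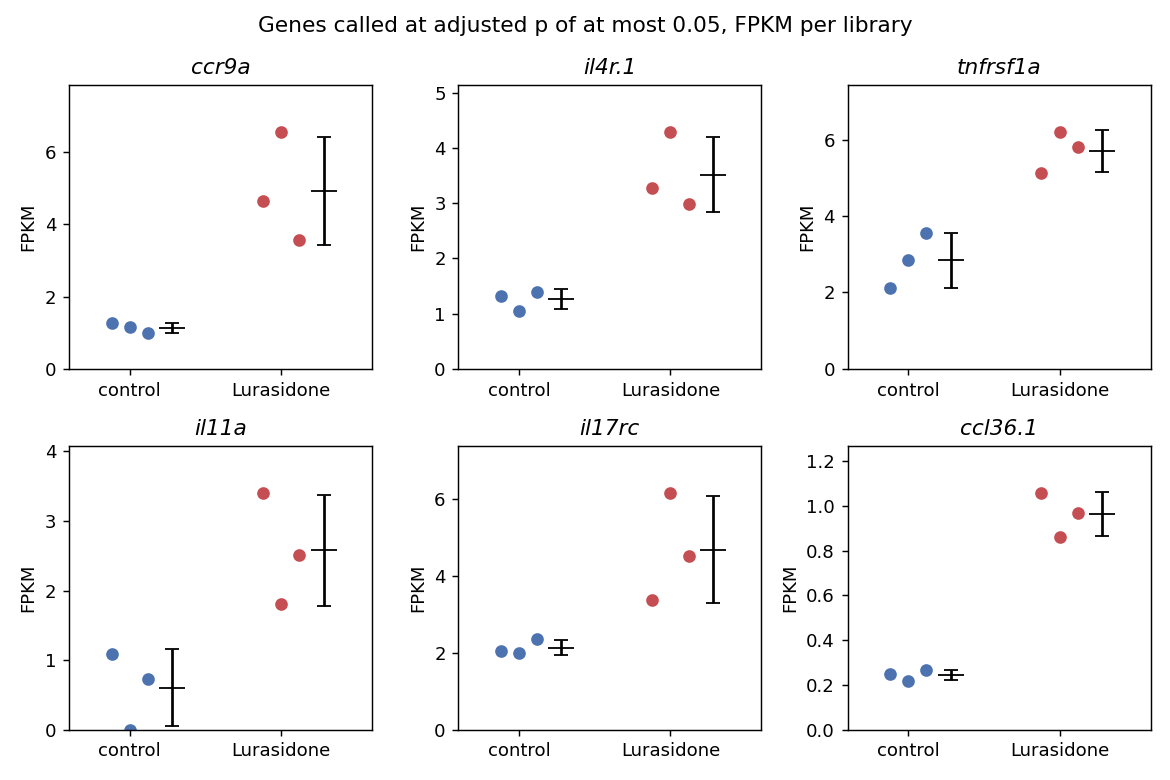
FPKM (y axis, from 0) of the 6 genes called at an adjusted p of at most 0.05, with 1 point per library, control in blue and Lurasidone in red, and the mean with SD in black. The groups do not overlap in any of the 6 genes.

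The chemokine receptor ccr9a (ENSDARG00000055186, chromosome 2, 32796873 to 32799083, GRCz11) had the largest fold change among the 78 tested genes on the log2(FPKM + 1) scale. This rank depended on the scale. With a pseudocount of 0.1 the log2 fold change was 1.98 for ccr9a and 2.49 for il11a, and with voom 2.06 and 2.58. Ccr9 is the receptor of Ccl25, a chemokine made in the thymus that attracts T cell precursors. The level of ccr9a was 1.26, 1.15 and 1.002 FPKM in control and 4.64, 6.55 and 3.58 under Lurasidone. The lowest Lurasidone library stood well above the highest control. It rose from 1.14 ± 0.1299 to 4.92 ± 1.51 FPKM (mean ± SD, n = 3 libraries), with a log2 fold change of 1.44 ± 0.21 (SE, adjusted p = 0.0044, limma). The ratio of mean FPKM was 4.33. The call held without each of the 6 libraries in turn, with log2 fold changes between 1.25 and 1.61 and adjusted p values between 0.0082 and 0.022. The second copy, ccr9b, had 0, 0 and 0 fragments in control and 0, 6 and 5 under Lurasidone, too few to be tested. The ligand ccl25b was abundant, with 9.97, 6.72 and 8.96 FPKM in control and 11.2, 12.3 and 10.5 under Lurasidone, and its groups did not overlap. Its log2 fold change of 0.38 ± 0.18 (SE, adjusted p = 0.19, limma) did not pass. For ccl25a the level was 2.37, 2.23 and 2.695 FPKM in control and 2.19, 0.882 and 2.62 under Lurasidone, and the groups overlapped.

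Markers of thymus and T cells were examined beside ccr9a. Among 10 such markers, 4 were tested and 0 were called (limma), with 1 lower at an unadjusted p of at most 0.05 (background 14.1%). Rag1, which with Rag2 cuts antigen receptor genes during lymphocyte development, had 0.551, 0.597 and 0.964 FPKM in control and 0.731, 1.402 and 0.918 under Lurasidone, and rag2 had 1.28, 1.65 and 1.16 FPKM in control and 0.502, 0.973 and 1.24 under Lurasidone. Both overlapped between the groups. The T cell kinase lck and the co-receptor cd4-1 were listed at 0 in all 6 libraries. The kinase zap70, which was too low to be tested, had 0.126, 0.0991 and 0.0801 FPKM in control and 0.435, 0.405 and 0.351 under Lurasidone, and the Lurasidone libraries were above the controls. The summed level of the 10 markers was between 26.2 and 32.8 FPKM in control and between 13.9 and 23.9 in Lurasidone, and most of it came from tox, with 28.6, 20.8 and 26.1 FPKM in control and 18.6, 8.89 and 18.1 under Lurasidone. The tox libraries did not overlap and the difference did not pass. Tox stood far above every other marker of the list, so the sum mostly describes tox. Whether the tox fragments came from T cells was not tested. The part of T cell number in the ccr9a result was not tested.

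No chemokine receptor other than ccr9a was called. Cxcr4b guides the migrating lateral line primordium and leukocytes, and its level was 4.43, 4.73 and 3.74 FPKM in control and 7.47, 6.104 and 5.05 under Lurasidone. Its libraries did not overlap, and the log2 fold change of 0.43 ± 0.18 (SE, adjusted p = 0.15, limma) did not pass. The paralog cxcr4a, with 3.39, 4.54 and 2.83 FPKM in control and 3.295, 2.68 and 3.02 under Lurasidone, overlapped. Their ligand cxcl12a, also known as stromal cell-derived factor, was the most abundant chemokine, with 12.8, 9.36 and 18.7 FPKM in control and 18.6, 25.8 and 22.4 under Lurasidone. The third control library lay slightly above the lowest Lurasidone library, and the log2 fold change was 0.71 ± 0.24 (SE, adjusted p = 0.089, limma). It passed with voom (log2 fold change 0.75, adjusted p = 0.042) and without control replicate 3 (0.95, limma adjusted p = 0.024). When any other single library was left out, cxcl12a did not pass (limma adjusted p between 0.095 and 0.23). The second ligand copy, cxcl12b, had 4.75, 2.97 and 4.5997 FPKM in control and 3.97, 5.48 and 3.11 under Lurasidone, at a log2 fold change of 0.02 ± 0.22 (SE, adjusted p = 0.97, limma). The neutrophil receptors cxcr1 and cxcr2 and the chemokine receptor ccr7 were too low to be tested, and ccr7 had 0, 0 and 0 fragments in control and 4, 0 and 0 under Lurasidone.

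Among the chemokines cxcl18b, cxcl8a, cxcl8b.1 and ccl19a.1 the direction was mixed. Cxcl18b, which attracts neutrophils in zebrafish, had 1.18, 0.619 and 3.38 FPKM in control and 3.87, 3.73 and 3.43 under Lurasidone. The Lurasidone libraries were close to each other and all above the controls, while the controls ranged widely, and the log2 fold change was 0.91 ± 0.32 (SE, adjusted p = 0.098, limma). Without control replicate 3 it passed (1.31, limma adjusted p = 0.0099). It did not pass with voom (adjusted p = 0.076) or when any other single library was left out (limma adjusted p between 0.17 and 0.25). Cxcl8a, the interleukin-8 of zebrafish and a neutrophil attractant, had 0.908, 1.904 and 0.577 FPKM in control and 0, 0.521 and 0.211 under Lurasidone. Here the Lurasidone libraries lay below all controls, at 10, 16 and 6 fragments in control and 0, 5 and 2 under Lurasidone, and the log2 fold change was -0.75 ± 0.26 (SE, adjusted p = 0.1, limma). Another interleukin-8 copy, cxcl8b.1, had 2.46, 0.716 and 3.76 FPKM in control and 2.096, 1.67 and 1.27 under Lurasidone and overlapped, with a log2 fold change of -0.197 ± 0.33 (SE, adjusted p = 0.73, limma). Ccl19a.1 had 0.188, 0.934 and 0.437 FPKM in control and 0.734, 1.03 and 0.7405 under Lurasidone and overlapped, with a log2 fold change of 0.298 ± 0.22 (SE, adjusted p = 0.4, limma). These chemokines therefore gave no call in either direction.

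Ccl36.1 (ENSDARG00000105263, chromosome 7, 39706004 to 39707161) was the only chemokine ligand called. Its level was 0.251, 0.219 and 0.265 FPKM in control and 1.06, 0.863 and 0.9703 under Lurasidone, at a log2 fold change of 0.66 ± 0.17 (SE, adjusted p = 0.041, limma). Few fragments lie behind this result, namely 3, 2 and 3 fragments in control and 11, 9 and 10 under Lurasidone. From the summed fragments, 8 in control and 30 in Lurasidone, the ratio was 3.90 with an exact 95% counting interval of 1.75 to 9.85. This interval leaves out variation between libraries and was made for a gene already called, so it is no support for the call. Ccl36.1 was also the only tested gene of the 173 that passed the filter through 1 group alone. The call was lost with voom (adjusted p = 0.16), with a pseudocount of 0.1 (0.055) and without control replicates 1, 2 or 3 (limma adjusted p = 0.12, 0.099 and 0.058), and without any Lurasidone library the gene failed the filter. The chemokines with the lowest fold changes were ccl39.3, with 1.41, 3.69 and 3.62 FPKM in control and 0.232, 1.39 and 0.701 under Lurasidone and a log2 fold change of -1.13 ± 0.31 (SE, adjusted p = 0.052, limma), and ccl27a, with 1.54, 0.675 and 1.23 FPKM in control and 0, 0.591 and 0 under Lurasidone and -0.86 ± 0.25 (SE, adjusted p = 0.058, limma). Both had Lurasidone libraries entirely below the controls and missed the threshold. Ccl39.3 passed without control replicate 1 (log2 fold change -1.45, limma adjusted p = 0.037), and ccl27a without Lurasidone replicate 2 (-1.08, limma adjusted p = 0.044). Neither passed when any other single library was left out, nor with voom (adjusted p = 0.18 and 0.11). Many ccl genes are tandem copies, and how the authors' counting split fragments between such copies is uncertain.

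**Figure D3:**
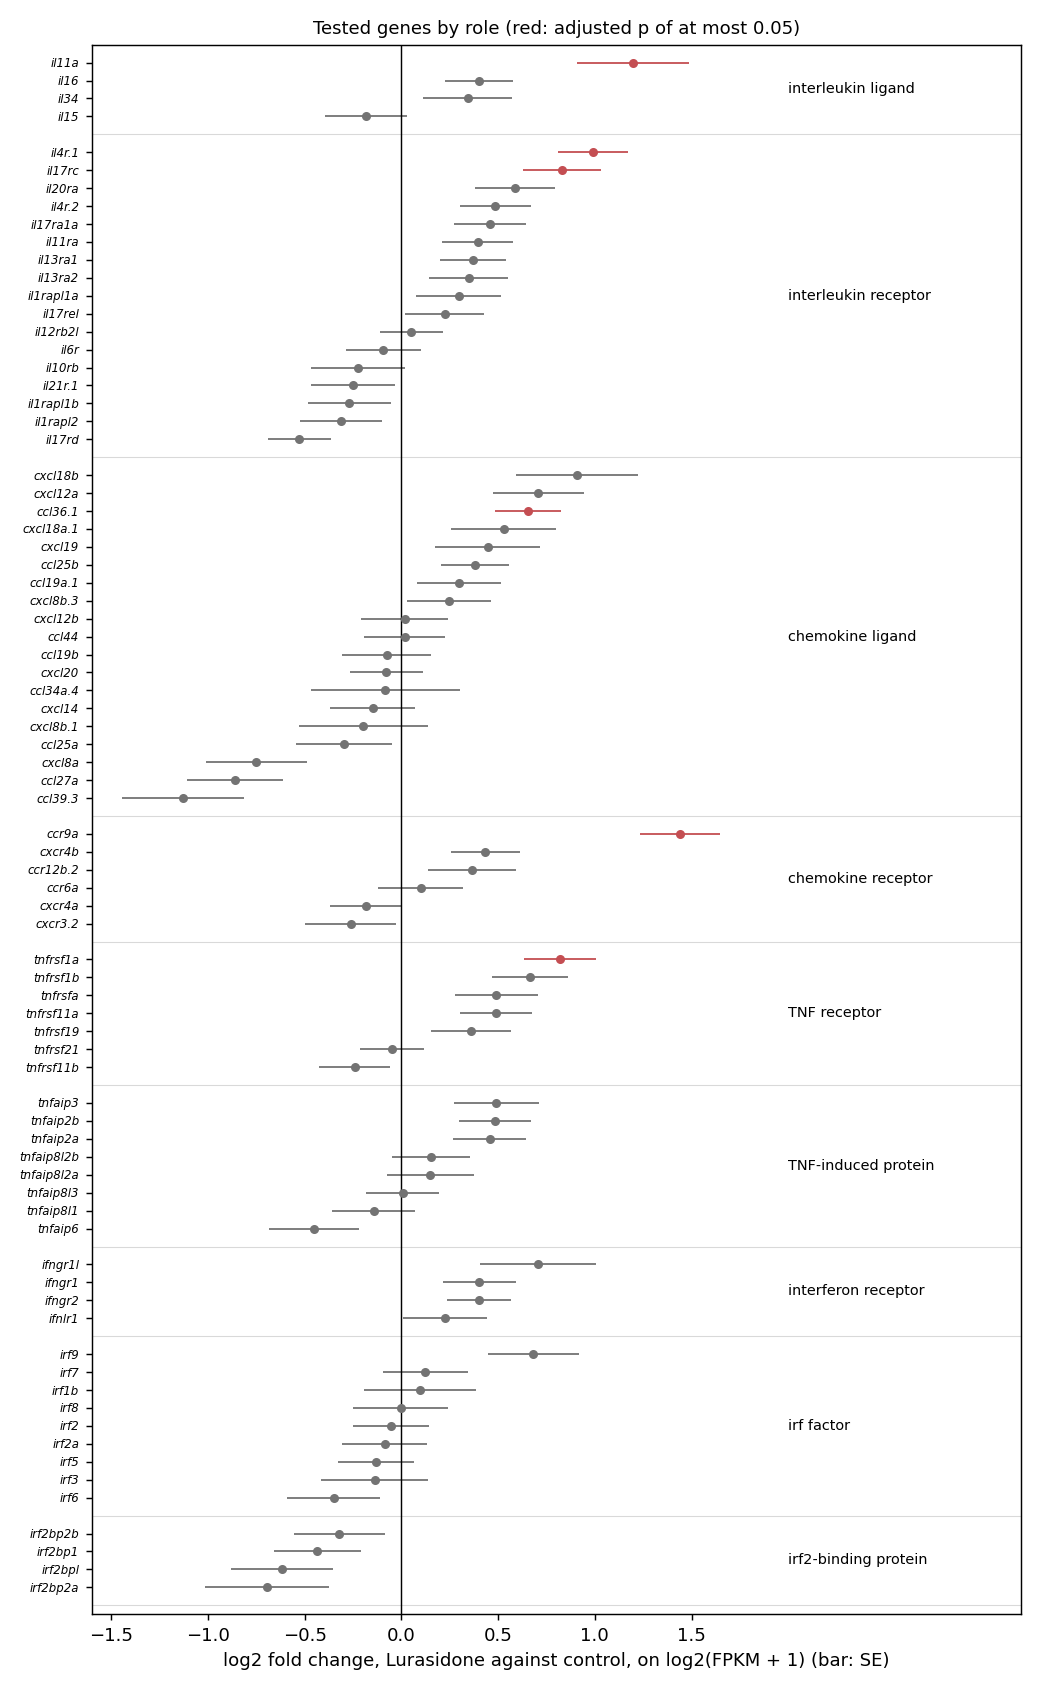
Log2 fold change of the 78 tested genes (x axis, log2(FPKM + 1), Lurasidone against control, bar = SE of limma) by role (y axis). The 6 called genes, in red, lie between 0.66 and 1.44, and all 4 irf2-binding proteins lie below 0.

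Among interleukin ligands il11a was called. Il11 is a cytokine of the interleukin-6 family, which signals through the shared receptor subunit Il6st (gp130) and Stat3 and is induced in regenerating tissue of zebrafish. The level of il11a (ENSDARG00000037859, chromosome 16, 12611362 to 12617155) was 1.08, 0 and 0.7302 FPKM in control and 3.402, 1.81 and 2.52 under Lurasidone. Its lowest Lurasidone library was above the highest control. It rose from 0.604 ± 0.552 to 2.58 ± 0.798 FPKM (mean ± SD, n = 3 libraries), with a log2 fold change of 1.197 ± 0.29 (SE, adjusted p = 0.032, limma) and a ratio of means of 4.26. These values rest on 11, 0 and 7 fragments in control and 30, 16 and 22 under Lurasidone, and control replicate 2, at 0, widened the difference: without it the difference was 0.89 on the log2 scale (limma adjusted p = 0.066). The call was also lost without Lurasidone replicates 1, 2 or 3 (limma adjusted p = 0.080, 0.054 and 0.086), with voom (0.069), with a pseudocount of 0.1 (0.087) and with no filter (0.085). The other copy, il11b, had 0, 0 and 1 fragments in control and 0, 2 and 0 under Lurasidone.

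The receptor chain il11ra had 3.11, 3.04 and 3.86 FPKM in control and 3.94, 5.92 and 4.37 under Lurasidone, with the Lurasidone libraries above the controls and a log2 fold change of 0.39 ± 0.18 (SE, adjusted p = 0.2, limma). The receptor il6r had 2.99, 2.28 and 3.21 FPKM in control and 1.999, 3.203 and 2.601 under Lurasidone and overlapped. The shared subunit il6st, which the symbol rule leaves out, rose from 9.26 ± 0.642 to 18.9 ± 1.25 FPKM (mean ± SD, n = 3 libraries), with a log2 fold change of 0.95 ± 0.15 (SE, adjusted p = 0.0057, limma). A list of 22 JAK-STAT genes, il6st included, had 19 tested genes, and 6 rose (background 5.79%). At an unadjusted p of at most 0.05, 8 were higher (background 14.1%) and 0 lower. Their median log2 fold change was 0.32, and the summed level was 104 to 106 FPKM in control and 205 to 230 under Lurasidone. The 6 were il6st, the related receptor lifrb, the transcription factor stat3 and the feedback inhibitors socs1a, socs3a and socs3b. Most of the rise in the summed level came from socs3a and socs3b. Mean FPKM went from 7.11 in control to 60.8 under Lurasidone for socs3a, and from 12.6 to 33.1 for socs3b. Of the 19 tested genes 4 had a negative log2 fold change. The list was chosen with earlier results of these data known, so its counts are no support for the il11a call. Stat3 had 9.74, 8.89 and 10.3 FPKM in control and 19.96, 17.8 and 20.7 under Lurasidone. Il6 itself was too scarce to be tested, with 0, 2 and 2 fragments in control and 0, 0 and 0 under Lurasidone.

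The classic inflammatory interleukins were too scarce for a test. Il1b, the main product of inflammasome activation, had 0.194, 0.153 and 0.205 FPKM in control and 0.0893, 0.757 and 0.203 under Lurasidone. Lurasidone replicate 2 was high and the other Lurasidone libraries were within the control range or below it. These were 10, 6 and 10 fragments in control and 4, 34 and 9 under Lurasidone, and il1b reached 0.5 FPKM in only 1 library. The anti-inflammatory il10 had 1, 0 and 0 fragments in control and 1, 0 and 0 under Lurasidone, and il4 had 0, 0 and 1 fragments in control and 0, 0 and 0 under Lurasidone. Il34, a ligand of the macrophage receptor Csf1ra that draws macrophages into the brain, had 0.776, 1.16 and 1.88 FPKM in control and 1.32, 2.42 and 1.85 under Lurasidone and overlapped, with a log2 fold change of 0.34 ± 0.23 (SE, adjusted p = 0.36, limma). Il16 was the most abundant interleukin ligand, with 1.72, 2.31 and 1.82 FPKM in control and 2.59, 2.72 and 3.41 under Lurasidone. Its libraries did not overlap, and the log2 fold change of 0.40 ± 0.18 (SE, adjusted p = 0.17, limma) did not pass.

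Among 17 tested interleukin receptors, 2 rose (background 5.79%), 7 lay entirely above the controls (background 17.1%) and 1 below (background 16.2%), and the median log2 fold change was 0.30. Il4r.1 (ENSDARG00000102583, chromosome 3, 44048907 to 44060037), a receptor for Il4 and Il13, had 1.32, 1.05 and 1.4001 FPKM in control and 3.28, 4.28 and 2.98 under Lurasidone. The groups did not overlap. It rose from 1.26 ± 0.182 to 3.51 ± 0.682 FPKM (mean ± SD, n = 3 libraries), with a log2 fold change of 0.99 ± 0.18 (SE, adjusted p = 0.011, limma) and a ratio of means of 2.79. The call held without each library in turn, with adjusted p values between 0.019 and 0.048. The tandem copy il4r.2 (ENSDARG00000116052, chromosome 3, 44002300 to 44012804) had 0.304, 0.289 and 0.585 FPKM in control and 1.02, 1.05 and 0.769 under Lurasidone. Its libraries did not overlap either, with a log2 fold change of 0.48 ± 0.18 (SE, adjusted p = 0.12, limma), and fragments of similar sequence could have been divided between the copies. The partner chains il13ra1 and il13ra2 had log2 fold changes of 0.37 ± 0.17 (SE, adjusted p = 0.19, limma) and 0.35 ± 0.20 (SE, adjusted p = 0.29, limma). Their ligands il4 and il13 were near the limit of detection in both groups, and il13 had 5, 0 and 2 fragments in control and 0, 0 and 0 under Lurasidone.

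Il17rc (ENSDARG00000099902, chromosome 11, 37250839 to 37275790), a subunit of the interleukin-17 receptor, had 2.05, 1.99 and 2.35 FPKM in control and 3.37, 6.14 and 4.51 under Lurasidone. It rose from 2.13 ± 0.195 to 4.68 ± 1.39 FPKM (mean ± SD, n = 3 libraries), with a log2 fold change of 0.83 ± 0.20 (SE, adjusted p = 0.034, limma). The call was lost without control replicates 1 or 2 (limma adjusted p = 0.12 and 0.084), without Lurasidone replicates 2 or 3 (0.10 and 0.091) and with no filter (0.079), and it held with voom (0.0075). The partner subunit il17ra1a had 1.76, 1.55 and 2.27 FPKM in control and 2.37, 3.43 and 3.001 under Lurasidone, also without overlap, with a log2 fold change of 0.46 ± 0.18 (SE, adjusted p = 0.14, limma). The opposite direction was seen in il17rd, known as Sef, an inhibitor of fibroblast growth factor signaling. Its level was 5.88, 5.83 and 4.91 FPKM in control and 3.65, 3.12 and 3.86 under Lurasidone, and every Lurasidone library was below every control. Its log2 fold change was -0.53 ± 0.16 (SE, adjusted p = 0.07, limma), and it was called lower with voom (log2 fold change -0.65, adjusted p = 0.036). The most abundant interleukin receptor, il10rb, which is shared by several cytokines, had 26.5, 33.5 and 16.4 FPKM in control and 24.1, 20.2 and 18.5 under Lurasidone and overlapped, with a log2 fold change of -0.22 ± 0.24 (SE, adjusted p = 0.58, limma). The lymphoid receptors il7r and il2rga were below 0.5 FPKM in every library and were not tested.

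The 3 il1rapl genes belong to this group by name, but their products are known as adhesion proteins of synapses. Of the 3, 0 were called (limma). Il1rapl1b was the highest of them, with 5.17, 5.93 and 5.09 FPKM in control and 3.72, 6.31 and 3.33 under Lurasidone, and il1rapl2 had 0.932, 1.85 and 1.04 FPKM in control and 0.613, 1.13 and 0.712 under Lurasidone. Both overlapped between the groups.

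**Figure D4:**
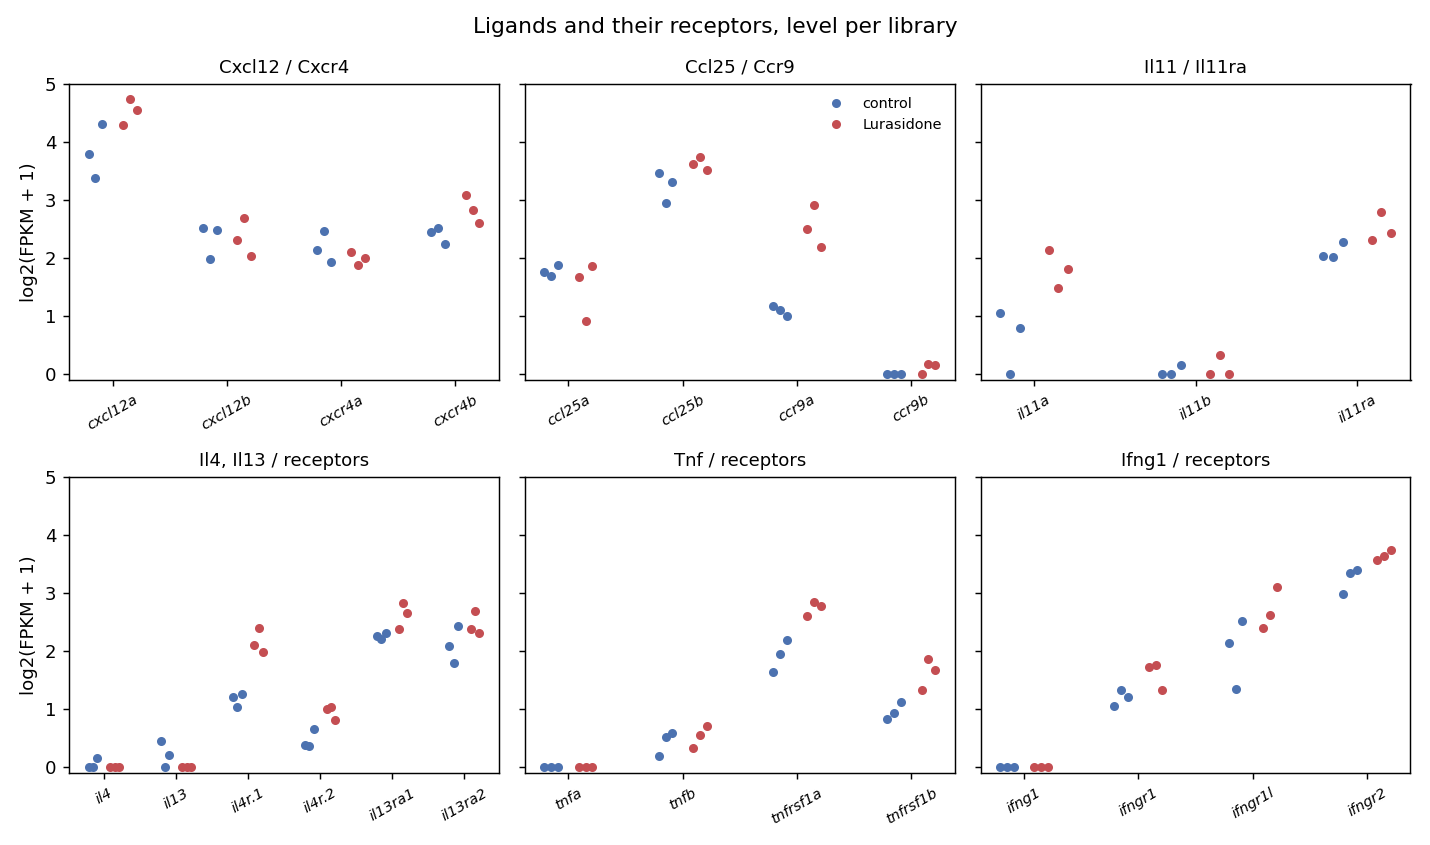
Level per library (y axis, log2(FPKM + 1)) of ligands and their receptors, with control in blue and Lurasidone in red. The receptors ccr9a, il4r.1 and tnfrsf1a are apart between the groups, while il4, il13, tnfa and ifng1 lie at or near 0 in both.

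Among 7 tested TNF receptors 1 was called, tnfrsf1a (background 5.79%), and 4 were higher at an unadjusted p of at most 0.05 (background 14.1%). Their median log2 fold change was 0.49. Tnfrsf1a (ENSDARG00000018569, chromosome 16, 17060758 to 17072561), the death domain receptor of TNF, had 2.13, 2.84 and 3.54 FPKM in control and 5.12, 6.19 and 5.82 under Lurasidone. The groups were apart. It rose from 2.84 ± 0.709 to 5.71 ± 0.545 FPKM (mean ± SD, n = 3 libraries), with a log2 fold change of 0.82 ± 0.18 (SE, adjusted p = 0.025, limma) and a ratio of means of 2.01. The call was lost without control replicates 1 or 2 (limma adjusted p = 0.11 and 0.057), without Lurasidone replicates 2 or 3 (0.083 and 0.081) and with no filter (0.058), and it held with voom (0.0064). The second TNF receptor, tnfrsf1b, had 0.776, 0.909 and 1.17 FPKM in control and 1.52, 2.63 and 2.21 under Lurasidone with no overlap and a log2 fold change of 0.67 ± 0.20 (SE, adjusted p = 0.062, limma), and voom called it (1.13, adjusted p = 0.029). Tnfrsf11a, the receptor RANK of osteoclast formation, had 0.717, 0.658 and 0.855 FPKM in control and 1.18, 1.32 and 1.895 under Lurasidone and a log2 fold change of 0.49 ± 0.18 (SE, adjusted p = 0.12, limma). Its decoy tnfrsf11b had 1.83, 1.47 and 1.22 FPKM in control and 0.889, 1.14 and 1.32 under Lurasidone and -0.24 ± 0.18 (SE, adjusted p = 0.42, limma), with overlapping groups. The most abundant TNF receptor, tnfrsfa, had 8.48, 4.75 and 7.27 FPKM in control and 10.4, 11.1 and 8.06 under Lurasidone and 0.49 ± 0.21 (SE, adjusted p = 0.17, limma), and also overlapped. The summed level of the 10 TNF receptors was between 22.1 and 25.2 FPKM in control and between 33.0 and 33.8 in Lurasidone.

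The 2 TNF ligand genes found by the symbol rule were scarce. Ligand genes with symbols starting with tnfsf lay outside the rule and were not examined. Tnfa was listed at 0 in all 6 libraries, and tnfb had 4, 9 and 13 fragments in control and 6, 11 and 15 under Lurasidone, overlapping between the groups. TNF-induced proteins (tnfaip genes) gave 8 tested genes, 0 calls (limma) and 3 higher genes at an unadjusted p of at most 0.05 (background 14.1%). This role follows the symbol and includes tnfaip8l1, tnfaip8l2a, tnfaip8l2b and tnfaip8l3. Whether TNF induces its genes was not examined. Tnfaip3, an inhibitor of NF-kB also known as A20, had 1.62, 1.096 and 1.18 FPKM in control and 1.44, 3.005 and 2.39 under Lurasidone, and overlapped with a log2 fold change of 0.49 ± 0.22 (SE, adjusted p = 0.17, limma). In a list of 23 NF-kB and adaptor genes 20 were tested and 1 was called higher, beside a background of 5.79%. At an unadjusted p of at most 0.05, 4 were higher and 2 lower (background 14.1% each way), with a median log2 fold change of 0.18. The called gene was the NF-kB inhibitor nfkbiaa, which rose from 11.4 ± 1.05 to 27.7 ± 6.78 FPKM (mean ± SD, n = 3 libraries), with a log2 fold change of 1.18 ± 0.19 (SE, adjusted p = 0.007, limma). In a list of inflammasome genes 5 were tested and 0 called (limma), with 2 higher at an unadjusted p of at most 0.05 (background 14.1%).

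Interferon genes were too scarce to be tested. Ifng1 and ifnphi2 were listed at 0 in all 6 libraries. Ifnphi1, a type I interferon of fish, had 6, 0 and 9 fragments in control and 1, 0 and 14 under Lurasidone. Control replicate 2 and Lurasidone replicate 2 were both at 0, and the other libraries overlapped. The interferon receptors were well detected, and all 4 tested had a positive log2 fold change, with a median of 0.40. Of these 0 were called (limma), and 2 were higher at an unadjusted p of at most 0.05 (background 14.1%). The most abundant, ifngr2, had 6.92, 9.16 and 9.56 FPKM in control and 10.8, 11.4 and 12.3 under Lurasidone. The Lurasidone libraries were above the controls, with a log2 fold change of 0.40 ± 0.17 (SE, adjusted p = 0.15, limma). Ifngr1l had 3.43, 1.54 and 4.74 FPKM in control and 4.299, 5.18 and 7.56 under Lurasidone and overlapped, with 0.71 ± 0.30 (SE, adjusted p = 0.16, limma), and ifngr1 had 1.09, 1.52 and 1.303 FPKM in control and 2.31, 2.38 and 1.51 under Lurasidone, with 0.40 ± 0.19 (SE, adjusted p = 0.2, limma).

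For irf factors, 9 were tested, 0 were called (limma) and 1 was higher at an unadjusted p of at most 0.05 (background 14.1%). That gene was irf9, a mediator of the response to type I interferon. Irf9 had 4.93, 2.19 and 4.13 FPKM in control and 7.03, 6.59 and 5.56 under Lurasidone, without overlap, and a log2 fold change of 0.68 ± 0.23 (SE, adjusted p = 0.096, limma). Irf2 was the most abundant irf factor, with 5.46, 6.499 and 4.65 FPKM in control and 6.94, 4.704 and 4.401 under Lurasidone and overlapping groups. Irf7, which amplifies the antiviral response, had 1.13, 0.971 and 1.08 FPKM in control and 0.771, 2.02 and 1.11 under Lurasidone and a log2 fold change of 0.12 ± 0.22 (SE, adjusted p = 0.75, limma), and irf3 had 2.41, 1.28 and 1.88 FPKM in control and 1.95, 2.38 and 0.688 under Lurasidone and -0.14 ± 0.28 (SE, adjusted p = 0.78, limma). Irf8, needed for macrophage development in zebrafish, had 1.54, 1.11 and 2.45 FPKM in control and 1.31, 2.49 and 1.28 under Lurasidone and -0.0033 ± 0.24 (SE, adjusted p = 0.995, limma). Irf1b had 2.21, 0.926 and 2.62 FPKM in control and 1.19, 2.05 and 3.07 under Lurasidone and 0.096 ± 0.29 (SE, adjusted p = 0.86, limma), and irf1a was too low to be tested. The groups overlapped in irf1b, irf3, irf7 and irf8, and each changed its sign when some single library was left out.

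Most interferon targets were also scarce. In a list of 30 interferon-stimulated genes 23 were not tested, and of the 7 tested 1 was called, with 2 higher and 2 lower at an unadjusted p of at most 0.05 (background 14.1% each way). The called gene, isg20, a ribonuclease, had 0.129, 0.169 and 0.0455 FPKM in control and 0.8403, 1.23 and 1.296 under Lurasidone. It passed the filter only through the Lurasidone libraries, where it was higher, so its call is no support for a rise of the list. Isg15, a ubiquitin-like protein and a common marker of interferon action, had 0.797, 0.672 and 1.09 FPKM in control and 0.721, 0.9805 and 1.39 under Lurasidone and overlapped. Rsad2, an antiviral enzyme, had at most 6 fragments in a library. Mxc, of the antiviral Mx family, had 1.15, 1.64 and 1.58 FPKM in control and 0.399, 0.827 and 0.713 under Lurasidone, with the Lurasidone libraries below the controls and a log2 fold change of -0.58 ± 0.19 (SE, adjusted p = 0.083, limma), which did not pass.

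The irf2-binding proteins, co-repressors that match the symbol rule without being irf factors, were the most abundant of the 173 genes. Irf2bp2a had 118, 163 and 81.7 FPKM in control and 105, 46.04 and 75.03 under Lurasidone, at a log2 fold change of -0.69 ± 0.32 (SE, adjusted p = 0.19, limma). Irf2bpl had 68.1, 75.3 and 50.1 FPKM in control and 53.02, 27.02 and 48.3 under Lurasidone, with -0.62 ± 0.26 (SE, adjusted p = 0.16, limma). All 4 of these genes had a negative log2 fold change, with a median of -0.53. Of these 0 were called (limma), and 1 was lower at an unadjusted p of at most 0.05 (background 14.1%). In both genes named, Lurasidone replicate 2 was the lowest library and control replicate 2 the highest, and the groups overlapped.

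Markers of leukocytes were examined beside the receptors. Neutrophil markers, 4 of them tested, gave 0 calls (limma) and 1 lower gene at an unadjusted p of at most 0.05 (background 14.1%). Their summed levels were 43.1 to 49.5 FPKM in control and 38.8 to 49.8 in Lurasidone. Mpx, the neutrophil peroxidase, had 20.9, 20.6 and 18.3 FPKM in control and 9.99, 13.1 and 18.3 under Lurasidone, with the Lurasidone libraries below the controls, one of them by a small margin, and lyz and cebp1 were below 1 FPKM in every library. The other 3 tested markers, npsn, nccrp1 and srgn, had positive log2 fold changes (0.06, 0.11 and 0.31). Of these, srgn had all Lurasidone libraries above the controls. Among 9 tested macrophage and microglia markers 2 rose (background 5.79%). The marker mpeg1.2 had 1.97, 1.23 and 1.57 FPKM in control and 3.801, 4.64 and 9.41 under Lurasidone. The other, grn1, had 0.683, 1.11 and 0.511 FPKM in control and 2.08, 1.84 and 2.19 under Lurasidone. At an unadjusted p of at most 0.05, 4 of the 9 were higher and 1 lower (background 14.1% each way). The lower one, mfap4, had 1.07, 1.19 and 1.32 FPKM in control and 0.521, 0.584 and 0.788 under Lurasidone, with the Lurasidone libraries below the controls and a log2 fold change of -0.43 ± 0.17 (SE, adjusted p = 0.14, limma). The summed level of that list was between 614 and 866 FPKM in control and between 500.1 and 617 in Lurasidone, nearly all of it from apoeb, which is also made outside microglia. The macrophage receptor csf1ra had 7.34, 7.03 and 8.76 FPKM in control and 9.26, 11.7 and 9.997 under Lurasidone, and the Lurasidone libraries were above the controls with a log2 fold change of 0.38 ± 0.16 (SE, adjusted p = 0.16, limma), which did not pass. General leukocyte markers, 4 of them tested, gave 0 calls (limma). At an unadjusted p of at most 0.05, 2 of these were higher (background 14.1%), spi1b and ptprc, and 0 lower. The other 2, lcp1 and laptm5, were more abundant and had negative log2 fold changes (-0.53 and -0.30). Mean FPKM went from 25.9 in control to 16.9 under Lurasidone for lcp1 and from 7.45 to 5.70 for laptm5, with overlapping groups. Ptprc, the leukocyte phosphatase CD45, had 0.273, 0.139 and 0.257 FPKM in control and 0.716, 0.522 and 0.722 under Lurasidone and passed the filter only through the Lurasidone libraries. The part of leukocyte number in the receptor results was not tested.

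Colony-stimulating factors and their receptors lie outside the symbol rule but act on the same leukocytes. Tests of 7 genes gave 0 calls (limma), with 3 higher and 1 lower at an unadjusted p of at most 0.05 (background 14.1% each way). Csf1a, a macrophage growth factor, had 0.825, 0.349 and 0.536 FPKM in control and 1.59, 2.05 and 1.21 under Lurasidone, with no overlap and a log2 fold change of 0.73 ± 0.20 (SE, adjusted p = 0.0501, limma). The granulocyte receptor csf3r had 1.11, 1.46 and 1.13 FPKM in control and 2.31, 2.14 and 3.17 under Lurasidone, also apart, with 0.66 ± 0.18 (SE, adjusted p = 0.052, limma). The cytokine mif had 24.8, 35.8 and 19.2 FPKM in control and 17.2, 15.4 and 12.99 under Lurasidone, with the Lurasidone libraries below the controls and a log2 fold change of -0.73 ± 0.22 (SE, adjusted p = 0.07, limma).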

How the data were processed

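The authors sequenced paired-end reads of 6 libraries and deposited FPKM values with gene length. Their processing notes name GRCz11 (danRer11); the aligner, counting tool and annotation are not given in the sources used here. The table held 0 columns of unknown samples. Each deposited FPKM value, multiplied by length, corresponded to whole fragments (within 0.02 fragments for 100% of values up to 2000 fragments). Summed fragments were 84.5 to 104.04% of the FPKM denominators, so an undescribed scaling is contained in the values. Intervals cover counting error only.

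Groups followed the labels. The fit was made with limma 3.58.1 in R 4.3.3 (lmFit, eBayes with trend, group as sole term) on log2(FPKM + 1), using the filter and thresholds given above. Exact permutation of 3 against 3 libraries cannot go below p = 0.1 and was not used. Lists were described by counts and medians. Genes, lists and tests were chosen with earlier results of these data known. Named genes were those called, the most abundant of each role and a fixed list of well-known cytokine genes. The remaining ones (among them ccl39.3, ccl27a, tnfrsf1b, il17rd, il17ra1a, irf9, the partner chains and the list genes) were chosen after their values were seen. Settings also tried were a fit with no trend, scaling by median ratios, a pseudocount of 0.1, no filter, limma voom on fragments (at least 10 summed over libraries), the replicate number as a block, an added fold threshold, and the omission of each library. The steps were tested on simulated data. Sequences were not analysed here.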

Additional observations from a re-analysis of the deposited data

How the results depend on the processing

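Of the 6 calls, ccr9a and il4r.1 held under every setting tried, the added fold threshold apart for il4r.1. The number of cytokine genes called higher, 6, was 3 with no filter, 2 with the added fold threshold and between 2 and 7 when single libraries were left out. The number called lower, 0, was 1 with voom (il17rd) and between 0 and 1 with single libraries left out. The median log2 fold change, 0.14 over 78 genes, ranged from 0.025 to 0.26 with single libraries left out. With voom it was 0.40, but over 114 genes and without the pseudocount of 1 on FPKM. The voom median over all genes was not computed, so 0.40 has no background beside it. The count over all genes, 2270, was 1330 with no filter, 896 with the fold threshold and 664 (without control replicate 1) to 2867 (without control replicate 3). The cause of these shifts was not tested. Same-numbered libraries did not clearly deviate together (correlations 0.12, -0.10 and 0.0056). So few libraries per group cannot show whether the replicate numbers pair the samples. With the replicate block 1366 of all genes were called, 4 cytokine genes were higher and 1 (ccl39.3) lower, and il17rc (adjusted p = 0.061, limma) and ccl36.1 (adjusted p = 0.082, limma) were no longer called. With single libraries left out, log2 fold changes crossed 0 for cxcl12b (-0.16 to 0.17), cxcl8b.1 (-0.61 to 0.13), irf1b (-0.18 to 0.32), irf3 (-0.34 to 0.16), irf7 (-0.093 to 0.29) and irf8 (-0.20 to 0.19). The filter left 58 of 81 ligands and 32 of 66 receptors untested.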
